A study of Mus musculus with 4 samples.

Results

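The 9 genes described here, Dlx1, Dlx2, Dlx5, Dlx6, Gsx1, Gsx2, Sp8, Sp9 and Lhx6, encode transcription factors of the ventral telencephalon and of the interneuron lineages that begin there. Every probe whose RefSeq accession belongs to 1 of these genes was taken, which gave 13 of the 55681 probes on the array and 9 of its 20887 named genes. The genes were chosen on genotype ratios of these same arrays, so those ratios are given as descriptions, without a test.

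RNA was compared between APPswe/PS1dE9 cultures, which carry a mutant amyloid precursor protein transgene and a mutant presenilin 1 transgene of familial Alzheimer's disease, and wild-type (WT) cultures. Both came from C57BL/6 embryos at day 13: cells of the telencephalon formed neurospheres over 5 days with EGF and FGF2 and then differentiated for 7 days after both factors were withdrawn. There were 4 cultures of each genotype on 4 two-colour Agilent arrays, with 1 culture of either genotype on each array. APPswe/PS1dE9 RNA was in Cy3 on arrays 1 and 2 and in Cy5 on arrays 3 and 4. The series design calls the cultures biological replicates but leaves unsaid if separate embryos or litters gave them, so errors and p-values speak for these arrays only. They cover the spread among arrays of the same dye orientation. The model has a dye term, so a difference between arrays 1 and 2 and arrays 3 and 4 is not part of them. The promoter that drives the transgenes is not given in the sources used here.

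In the embryonic forebrain, Gsx1 and Gsx2 are homeodomain factors of dividing progenitors in the ganglionic eminences, the ventral swellings that give rise to most GABA neurons. They act upstream of the Dlx homeodomain genes, which lie in the genome as convergently transcribed pairs (Dlx1 with Dlx2, Dlx5 with Dlx6) and drive GABA neuron differentiation and migration. The zinc finger factors Sp8 and Sp9 act in precursors of the lateral and caudal eminences, including those of olfactory bulb interneurons, and the LIM homeodomain factor Lhx6 marks interneurons of the medial eminence.

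Promoter sequence was available from RefSeq (build GRCm38.p6) for 7 of the 9 genes. The first listed start of Dlx1 and Dlx2, a convergent pair, of Gsx2, which acts upstream of them, and of Sp8 and Lhx6, whose probes lay at the low and the high end of the fitted ratios, is shown by the 250 bases before it, 5′ to 3′ on the strand of the gene. Capitals mark matches on either strand to 3 motifs: TAATT, a core bound by many homeodomain proteins and read as AATTA on the other strand, GGGCGG, the GC box of Sp factors and read as CCGCCC there, and the E-box CAGCTG.
Dlx1, chr2:71529195-71529444, plus strand: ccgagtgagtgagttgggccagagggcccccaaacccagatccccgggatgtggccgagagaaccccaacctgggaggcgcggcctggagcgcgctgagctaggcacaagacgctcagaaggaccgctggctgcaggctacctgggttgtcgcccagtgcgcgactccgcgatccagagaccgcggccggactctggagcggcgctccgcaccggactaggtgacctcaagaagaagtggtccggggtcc
Dlx2, chr2:71546755-71547004, minus strand: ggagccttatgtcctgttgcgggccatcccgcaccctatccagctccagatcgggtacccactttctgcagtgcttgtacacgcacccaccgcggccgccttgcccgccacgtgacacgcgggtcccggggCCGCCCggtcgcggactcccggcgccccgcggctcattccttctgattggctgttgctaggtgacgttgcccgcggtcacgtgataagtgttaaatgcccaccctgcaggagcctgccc
Gsx2, chr5:75075351-75075600, plus strand: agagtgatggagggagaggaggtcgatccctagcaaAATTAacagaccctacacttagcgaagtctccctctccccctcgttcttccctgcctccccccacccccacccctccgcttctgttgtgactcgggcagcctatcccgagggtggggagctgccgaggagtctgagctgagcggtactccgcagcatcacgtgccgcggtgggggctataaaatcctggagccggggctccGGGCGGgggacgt
Sp8, chr12:118846079-118846328, plus strand: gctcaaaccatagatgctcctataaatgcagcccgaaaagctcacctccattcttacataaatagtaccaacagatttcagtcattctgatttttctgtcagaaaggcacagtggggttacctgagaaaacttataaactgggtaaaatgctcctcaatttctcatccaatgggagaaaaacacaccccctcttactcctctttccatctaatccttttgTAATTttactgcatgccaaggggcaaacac
Lhx6, chr2:36105409-36105658, minus strand: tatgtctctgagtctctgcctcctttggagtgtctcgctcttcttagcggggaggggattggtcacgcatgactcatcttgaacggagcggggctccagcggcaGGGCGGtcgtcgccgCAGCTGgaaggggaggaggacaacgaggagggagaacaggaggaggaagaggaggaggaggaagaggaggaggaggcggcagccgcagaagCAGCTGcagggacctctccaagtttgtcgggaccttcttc
The 5 windows differ in which motifs they hold, and that of Dlx1 holds none of the 3. Over the first windows of the 7 genes, TAATT was present in 3 (Gsx2, Sp8 and Sp9), GGGCGG in 4 (Dlx2, Gsx2, Sp9 and Lhx6) and CAGCTG in 1 (Lhx6). Sp8 and Lhx6 had 3 listed starts each, and their motifs depended on the start. Window 2 of Sp8 held GGGCGG and not TAATT, and window 3 of Lhx6 held TAATT and neither other motif. Among all 32851 promoter windows of the same length, first start or not, 25.0% held TAATT, 32.7% held GGGCGG and 13.0% held CAGCTG. A match is a description of the letters and not a site of binding.

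RNA of all 9 genes was measured in both genotypes. Of the 13 probes, 12 were kept because they stood well above background in 1 genotype on at least 3 of the 4 arrays, and each of the 12 did so in both genotypes. Another Lhx6 probe, for a further transcript, was well above background in 0 of the 8 cultures and is not described further. Below, a level is the normalized log2 intensity of 1 probe in 1 culture, and a ratio is the log2 ratio of APPswe/PS1dE9 over WT, fitted over the 4 arrays with its standard error (SE). Levels compare cultures for 1 probe and not 1 gene with another.

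The set was lower in APPswe/PS1dE9 cultures apart from Gsx1 and Lhx6. The median ratio of the 12 probes was -0.32, against 0.01 over all kept probes, whose 5th to 95th percentiles were -0.23 and 0.43. The ratio was below 0 on every array for 9 of the 12 probes (12.2% of all kept probes) and above 0 on every array for 1 (15.6% of all kept probes). For 8 probes every APPswe/PS1dE9 level lay below every WT level, as for 4.44% of all kept probes, and for 0 probes did every one lie above (7.17% of all kept probes). In the limma fit over all probes, 6 member probes of 5 genes were called lower, where 1.89% of all kept probes were, and 1 was called higher, where 6.85% were, which makes 7 of 12 in either direction, where 8.75% were. Without array 3 the calls were 2 lower and 0 higher, without array 4 and over arrays 2 and 4 alone they were 0 and 0, and with the processed signals 2 and 1. Nothing is read from these counts, because the same contrast chose the genes. In bulk RNA, fewer cells of a type and less RNA per cell cannot be told apart.

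**Figure D1:**
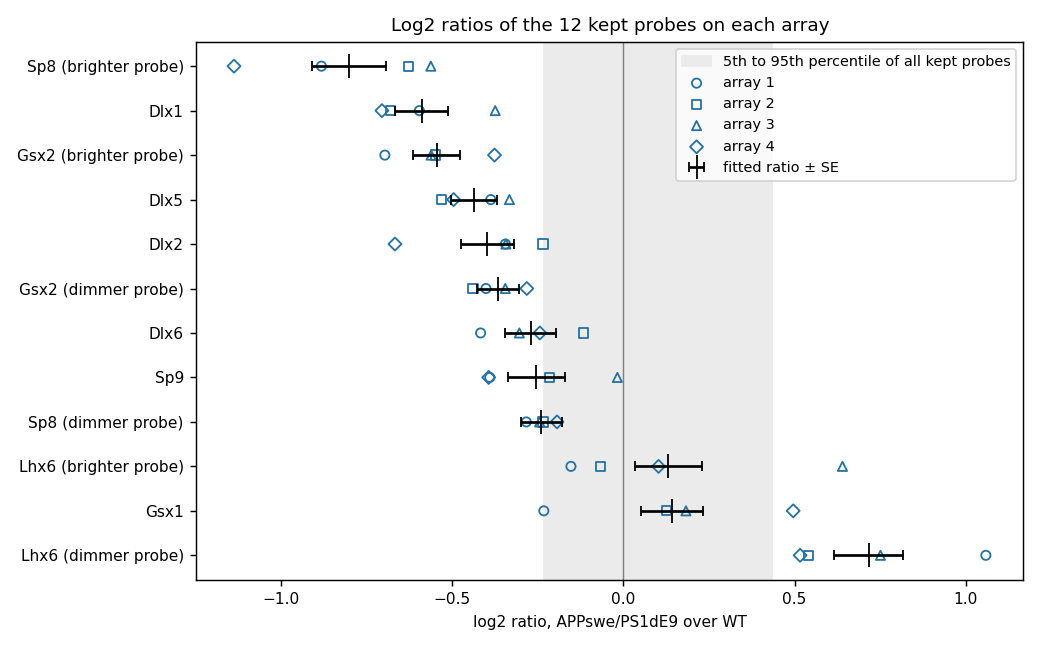
Log2 ratios of APPswe/PS1dE9 over WT for the 12 kept probes, with 1 symbol for each of the 4 arrays, the fitted ratio ± SE in black, and the 5th to 95th percentile of all kept probes in grey. Fitted ratios ran from -0.80 for the brighter Sp8 probe to 0.72 for the dimmer Lhx6 probe.

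Of the progenitor factors, Gsx2 was lower in APPswe/PS1dE9 cultures and Gsx1 was not. The brighter Gsx2 probe had levels of 7.24, 6.93, 7.36 and 7.23 in APPswe/PS1dE9 cultures, against 7.94, 7.48, 7.92 and 7.61 in WT cultures (arrays 1 to 4 in each case, here and below). All 4 APPswe/PS1dE9 levels were lower than any WT level, and the ratio was -0.55 ± 0.07. The dimmer Gsx2 probe had levels of 7.47, 6.99, 7.31 and 7.19 in APPswe/PS1dE9 cultures, against 7.87, 7.43, 7.66 and 7.48 in WT cultures. Its ratio was -0.37 ± 0.06 and below 0 on each array, although the APPswe/PS1dE9 level of array 1 lay above the WT level of array 2. Both probes were close to background, with APPswe/PS1dE9 signal well above it on 3 of 4 arrays, and the offset used in background correction draws such ratios towards 0. From the scanner software's own processed signals the ratios were -1.20 and -0.98.

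Gsx1, which acts together with Gsx2 in ventral progenitors, had levels of 9.20, 9.47, 9.24 and 9.08 in APPswe/PS1dE9 cultures, against 9.43, 9.35, 9.05 and 8.58 in WT cultures. The genotypes overlapped. Its ratio was 0.14 ± 0.09, with -0.23 on array 1 and 0.13, 0.18 and 0.50 on the others.

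The 4 Dlx genes were all lower in APPswe/PS1dE9 cultures, each with its 4 levels beneath the 4 WT levels. Dlx1, needed for the differentiation and survival of interneurons, had levels of 11.51, 11.42, 11.51 and 11.48 in APPswe/PS1dE9 cultures, against 12.11, 12.10, 11.89 and 12.19 in WT cultures. Its ratio was -0.59 ± 0.08, or 66.5% of the WT level. The APPswe/PS1dE9 cultures differed little among themselves, with an SD of 0.05 against 0.13 in WT (n = 4 each).

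Dlx2, the partner of Dlx1 and expressed ahead of Dlx5 and Dlx6 in migrating precursors, had levels of 12.49, 12.37, 12.37 and 12.21 in APPswe/PS1dE9 cultures, against 12.84, 12.60, 12.71 and 12.87 in WT cultures. The ratio was -0.40 ± 0.08, and array 4, at -0.67, was farther from 0 than the other arrays, at -0.23 to -0.34. Dlx5, which follows Dlx1 and Dlx2 in differentiating neurons, had levels of 9.66, 9.70, 9.65 and 9.71 in APPswe/PS1dE9 cultures, against 10.05, 10.23, 9.99 and 10.20 in WT cultures. The ratio of Dlx5 was -0.44 ± 0.07, between -0.33 and -0.53 on the single arrays. Dlx6, its partner, had levels of 7.39, 7.38, 7.34 and 7.36 in APPswe/PS1dE9 cultures, against 7.81, 7.50, 7.65 and 7.60 in WT cultures. Its ratio of -0.27 ± 0.07 was closer to 0 and was not called in the fit. The Dlx6 probe was dim, and the offset draws such ratios towards 0. From the processed signals its ratio was -0.38, against -0.62 for Dlx1, -0.42 for Dlx2 and -0.54 for Dlx5.

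**Figure D2:**
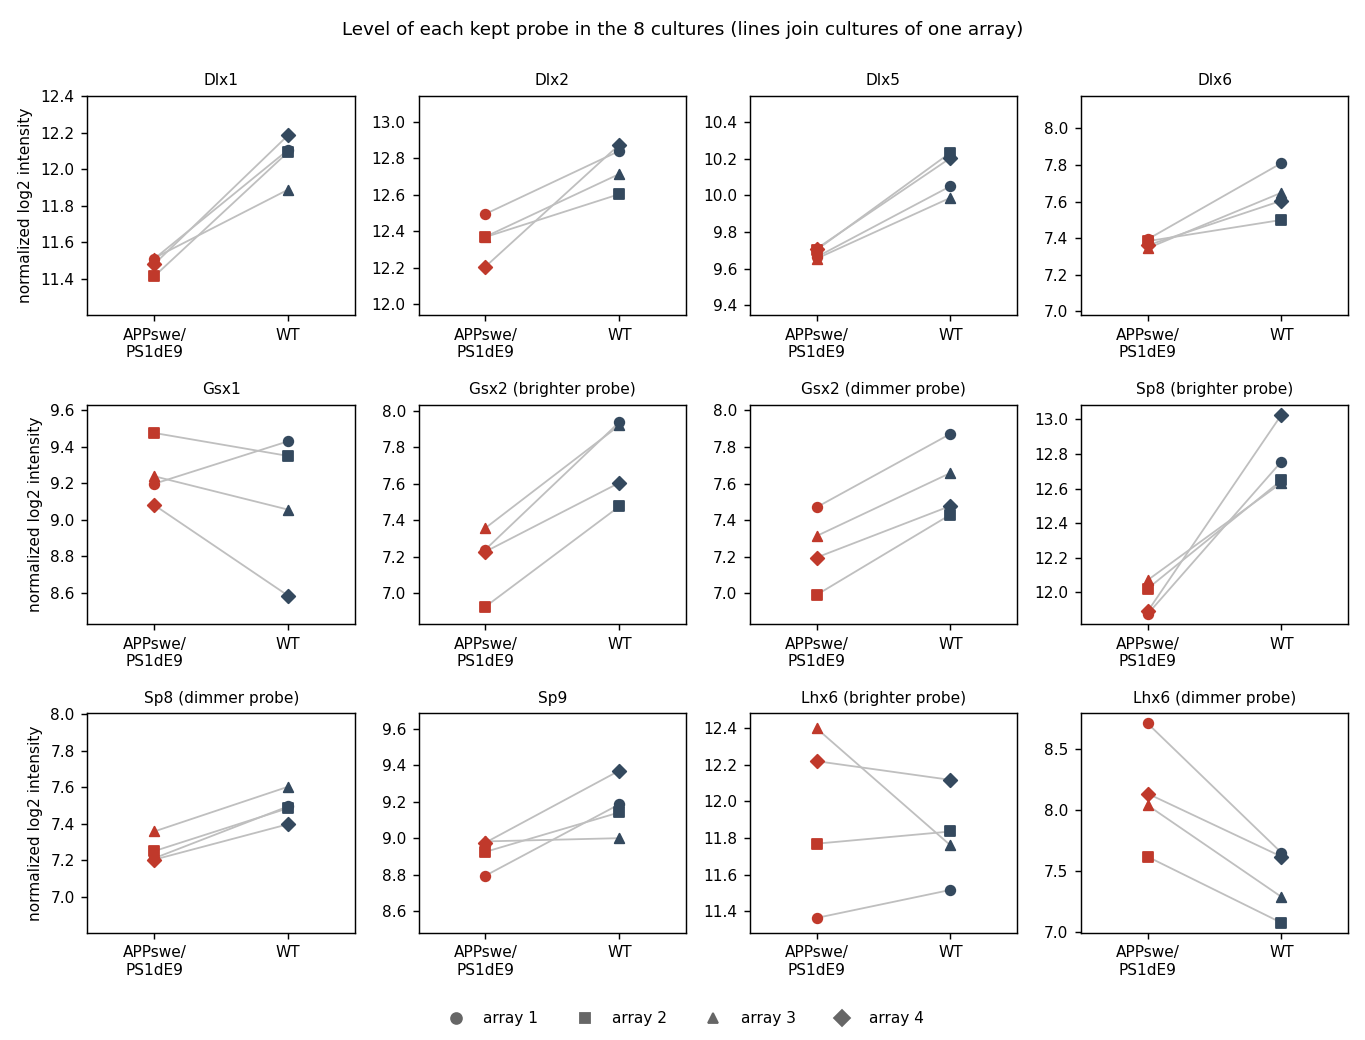
Normalized log2 intensity of each kept probe in the 4 APPswe/PS1dE9 and the 4 WT cultures, APPswe/PS1dE9 (red) at the left and WT (dark blue) at the right, with grey lines joining the 2 cultures of 1 array and a separate vertical scale for each probe. The Dlx probes and the brighter probes of Sp8 and Gsx2 separate the genotypes, while Gsx1 and the brighter Lhx6 probe overlap.

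Sp8 was lower in APPswe/PS1dE9 cultures on both of its probes. The brighter probe had levels of 11.87, 12.02, 12.07 and 11.89 in APPswe/PS1dE9 cultures, against 12.76, 12.65, 12.63 and 13.03 in WT cultures. The ratio was -0.80 ± 0.11, or 57.3% of the WT level, and ran from -0.56 on array 3 to -1.14 on array 4. It was the lowest fitted ratio of the set, whereas from the processed signals it was -0.83 and both Gsx2 probes were lower. The dimmer Sp8 probe had levels of 7.21, 7.25, 7.36 and 7.20 in APPswe/PS1dE9 cultures, against 7.50, 7.49, 7.60 and 7.40 in WT cultures. It too separated the genotypes, with a ratio of -0.24 ± 0.06 that the processed signals gave as -0.56.

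Sp9, which acts with Sp8 in olfactory bulb and striatal precursors, had levels of 8.80, 8.93, 8.98 and 8.98 in APPswe/PS1dE9 cultures, against 9.19, 9.14, 9.0 and 9.37 in WT cultures. The ratio was -0.25 ± 0.08. On array 3 it was -0.02, so that the separation of the genotypes there was slight.

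The Lhx6 probes differed: the dimmer was higher in APPswe/PS1dE9 cultures, and the brighter had ratios on both sides of 0. The brighter probe had levels of 11.36, 11.77, 12.40 and 12.22 in APPswe/PS1dE9 cultures, against 11.52, 11.84, 11.76 and 12.12 in WT cultures. Its ratio of 0.13 ± 0.10 was made of -0.15 and -0.07 on arrays 1 and 2, and 0.64 and 0.10 on arrays 3 and 4. The dimmer probe had levels of 8.71, 7.62, 8.04 and 8.14 in APPswe/PS1dE9 cultures, against 7.65, 7.08, 7.29 and 7.62 in WT cultures. It was higher in APPswe/PS1dE9 on all 4 arrays, by 0.72 ± 0.10 or 1.64-fold, although the lowest APPswe/PS1dE9 level lay just below the highest WT level.

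The ratio of the dimmer Lhx6 probe exceeded that of the brighter by 0.59 in the fit, and by 1.21, 0.61, 0.11 and 0.41 on the arrays. For Sp8 the dimmer probe was nearer to 0 by 0.56, and for Gsx2 by 0.18. These differences depended on the processing. From the processed signals the brighter and dimmer probes had ratios of 0.11 and 0.99 for Lhx6, and -0.83 and -0.56 for Sp8. For Gsx2 they were -1.20 and -0.98. The positions of the probes within the transcripts were not used here, and whether the Lhx6 probes read different transcripts was not tested.

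**Figure D3:**
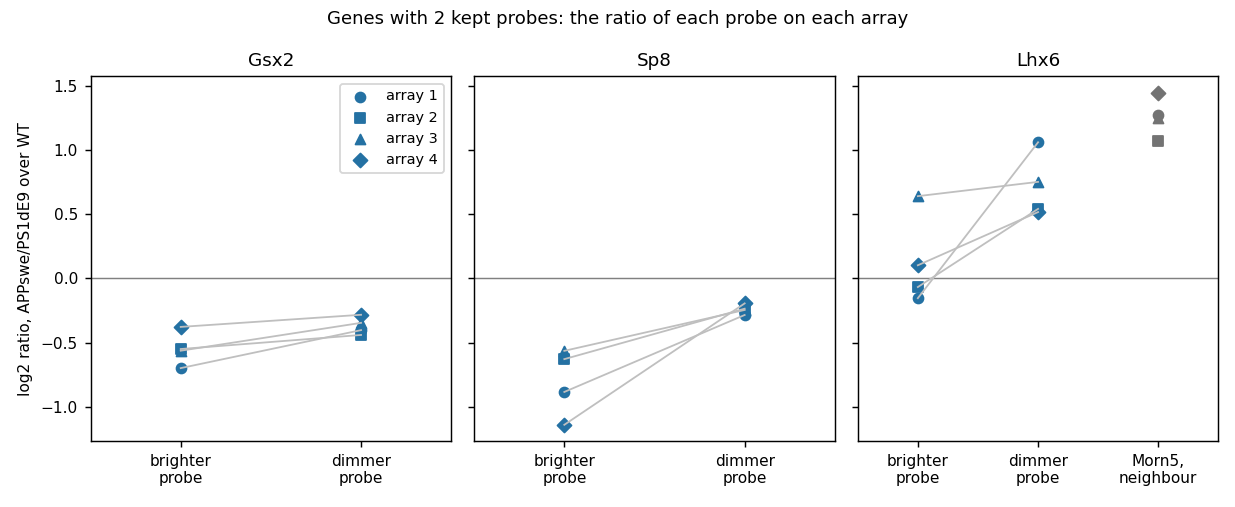
Log2 ratios of APPswe/PS1dE9 over WT of both probes of Gsx2, Sp8 and Lhx6 on each array, with lines joining the values of 1 array. Both probes of Gsx2 and of Sp8 lie below 0 on every array, while the Lhx6 probes part, most on array 1. Grey symbols beside Lhx6 give the ratios of its neighbour Morn5, 1.07 to 1.44.

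The genes lay at different distances from Dlx1 in their pattern over the arrays. Likeness was the Euclidean distance between the 4 array ratios, ranked over 13623 named genes measured on all arrays. Dlx5 was nearest of the set at 0.333 (rank 20), followed by Gsx2 at 0.413 (rank 47), Dlx2 at 0.514 (rank 92) and Sp8 at 0.554 (rank 127). Sp9 and Dlx6 were at 0.695 and 0.754, and Lhx6 and Gsx1 were far, at 1.5 and 1.59. The 5 nearest genes outside the set were the transcriptional corepressor Cbfa2t3 (0.175), Nexmif (0.177), the ephrin ligand Efnb2 (0.246), the sterol reductase Tm7sf2 (0.268) and St8sia4 (0.275), which adds polysialic acid to NCAM. A further probe of Cbfa2t3 had a ratio of 0.00 ± 0.06. A distance over 4 arrays is a description of these arrays and mostly follows the size of the ratio.

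Position on the chromosome was not part of how the genes were chosen, so the 2 nearest measured genes on either side of each were tested. Of 29 such neighbours, 1 was lower and 2 were higher in APPswe/PS1dE9 cultures at an adjusted p under 0.05 (limma, Benjamini-Hochberg over all kept probes), and their median ratio was -0.04. With 1 probe for each named gene, 2.15% of all genes were lower and 10.2% higher. Dlx6os1, the noncoding RNA transcribed across the Dlx5 and Dlx6 interval, fell (-0.41 ± 0.08, limma adjusted p = 0.0343), with -0.58, -0.65, -0.01 and -0.41 on the arrays. Dlx1as, the antisense RNA of Dlx1, did not pass (-0.10 ± 0.06, limma adjusted p = 0.386).

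Next to Lhx6, Morn5 had levels of 10.82, 10.18, 10.62 and 10.41 in APPswe/PS1dE9 cultures, against 9.55, 9.11, 9.37 and 8.97 in WT cultures. The genotypes did not overlap, and Morn5 rose by 1.26 ± 0.07 (limma adjusted p = 0.000486). Lhx6 and Morn5 are annotated side by side, and the values cannot tell whether transcripts of the 2 genes share sequence. Near Gsx1, the vascular growth factor receptor Flt1 was higher in APPswe/PS1dE9 (limma adjusted p = 0.0246). Its signal was well above background on 3 arrays in APPswe/PS1dE9 and on 0 in WT, so its fold, 1.25 with a floor under WT, is approximate. For that fold each array's WT value was raised, where lower, to a floor. The floor was the dimmest WT signal of any kept probe that passed as well above background there. Without array 3, without array 4 and with the processed signals, 1 neighbour was higher and 0 were lower.

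**Figure D4:**
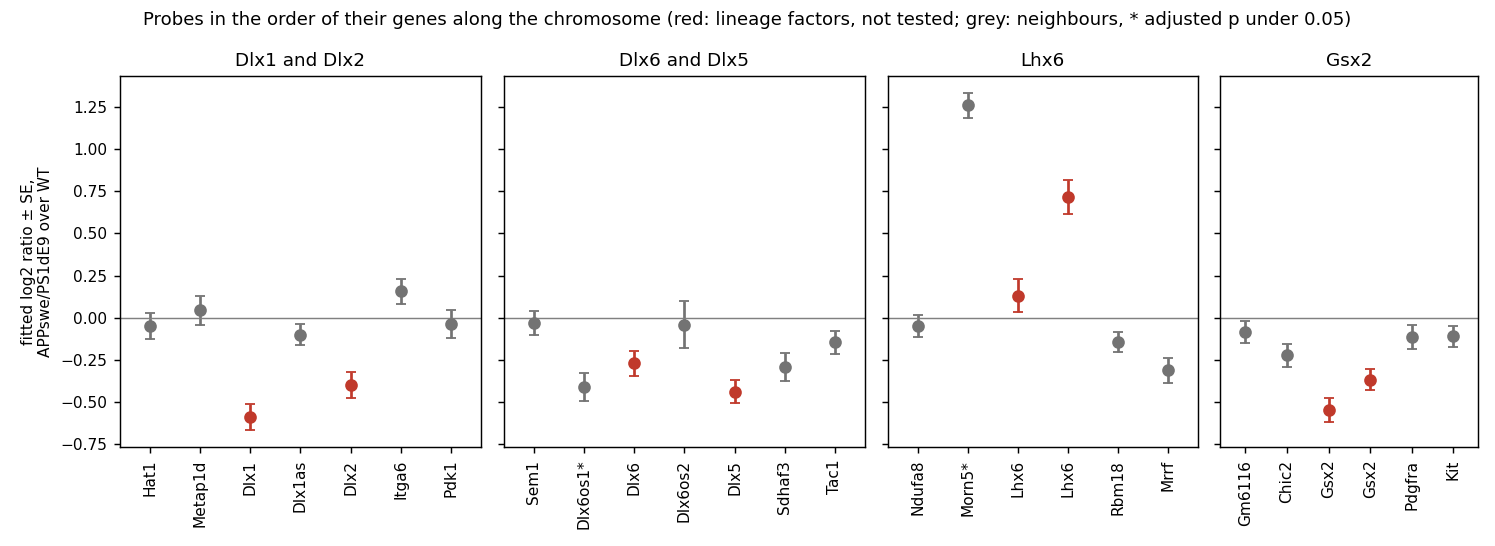
Genotype ratio (log2, APPswe/PS1dE9 over WT, ± SE) of the probes of Dlx1, Dlx2, Dlx5, Dlx6, Lhx6 and Gsx2 (red) and of the 2 nearest measured genes on either side (grey), in chromosomal order and not by distance. Asterisks mark neighbours past an adjusted p of 0.05, and the genes in red carry no test. Morn5, at 1.26, stands next to Lhx6.

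Other genes of the same lineages were read from 7 lists with the 9 genes left out. Of 147 genes on the lists, 116 were measured, with 18 lower, 13 higher and 85 not past the test, and a median ratio of -0.04 (0.01 over all kept probes). Among all named genes, 2.15% were lower and 10.2% higher, so the count of higher genes was near that of all genes. Most calls were lost under some settings: there were 1 lower and 4 higher without array 3, 0 lower and 4 higher without array 4, 2 lower and 4 higher over arrays 2 and 4 alone, 2 lower and 6 higher with the processed signals or the deposited table, and 7 lower and 8 higher with no filter on dim probes. The 4 genes Npy, Sst, Rarb and Ppp1r1b, all higher, kept their calls under all 15 alternatives. From here on, each p is the limma p adjusted by Benjamini-Hochberg over all kept probes.

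Precursor genes of the olfactory bulb lineage and migration genes were among the lower. In the olfactory bulb list, 5 of 17 genes fell, 0 rose and 12 did not pass, with a median of -0.21. Prokr2, the prokineticin receptor that migrating bulb interneurons need, had levels of 10.15, 10.51, 10.42 and 10.29 in APPswe/PS1dE9 cultures, against 11.10, 11.26, 10.91 and 11.33 in WT cultures. Prokr2 fell on every array (-0.81 ± 0.10, adjusted p = 0.00768), and St8sia4 (-0.48 ± 0.07, adjusted p = 0.0114) and the neuronal precursor factor Sox11 (-0.50 ± 0.08, adjusted p = 0.0141) fell as well. In the list for interneuron specification and migration, 5 of 26 genes fell, 0 rose and 21 did not pass, with a median of -0.06. Among them the guanine nucleotide exchange factor Tiam2 (-0.44 ± 0.08, adjusted p = 0.0262), the guidance receptor Robo2 (-0.46 ± 0.09, adjusted p = 0.0281) and the microtubule protein Dcx of migrating neurons (-0.54 ± 0.11, adjusted p = 0.0312, with -0.34 on each of 2 further probes) fell, as did Dlx6os1, given above.

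Among ventral progenitor patterning genes, 3 of 18 fell, 1 rose and 14 did not pass, with a median of -0.06. Hes5, a Notch effector of progenitors, had levels of 13.70, 13.45, 13.71 and 13.43 in APPswe/PS1dE9 cultures, against 14.28, 14.32, 14.23 and 13.94 in WT cultures. Hes5 fell (-0.63 ± 0.07, adjusted p = 0.0055), as did Sall1 (-0.30 ± 0.06, adjusted p = 0.0353) and Nr2f1 (-0.31 ± 0.06, adjusted p = 0.0383), while Vax1 rose (0.35 ± 0.06, adjusted p = 0.0210) on a probe well above background in 1 of 4 WT cultures. A further Vax1 probe did not pass (0.22 ± 0.06, adjusted p = 0.0833). Nkx2-1, a homeodomain factor known to act upstream of Lhx6 and chosen after its values were seen, did not pass (0.18 ± 0.09, adjusted p = 0.265).

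In the list for GABA phenotype and interneuron subtypes, 4 of 15 genes rose, 1 fell and 10 did not pass, with a median of 0.11. Npy, a neuropeptide of an interneuron class, had levels of 9.82, 9.39, 10.02 and 9.98 in APPswe/PS1dE9 cultures, against 8.64, 8.34, 8.57 and 8.47 in WT cultures, and rose (1.29 ± 0.06, adjusted p = 0.000320). Somatostatin, Sst, had levels of 10.80, 10.93, 11.21 and 11.22 in APPswe/PS1dE9 cultures, against 10.28, 10.26, 10.07 and 10.30 in WT cultures, and rose (0.81 ± 0.07, adjusted p = 0.00192). Both peptides mark subtypes that include cells of the Lhx6 lineage. Pvalb, a calcium-binding protein of fast-spiking interneurons, also rose (0.47 ± 0.07, adjusted p = 0.0113), and Calb2, the calcium-binding protein calretinin of other interneurons and bulb cells, fell (-0.31 ± 0.06, adjusted p = 0.0325). The GABA synthesis genes Gad1 (0.33 ± 0.10, adjusted p = 0.110) and Gad2 (0.30 ± 0.08, adjusted p = 0.0716), chosen after their values were seen, did not pass.

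Of 15 striatal projection neuron genes, 5 rose, 0 fell and 10 did not pass, with a median of 0.09. Rarb, a retinoic acid receptor of the striatal lineage, had levels of 10.38, 10.37, 10.28 and 10.11 in APPswe/PS1dE9 cultures, against 9.29, 9.37, 9.52 and 9.34 in WT cultures, and rose (0.91 ± 0.06, adjusted p = 0.000799; 0.45 ± 0.07 on a further probe). Ppp1r1b, which encodes the dopamine signalling protein DARPP-32, rose by 0.86 ± 0.07 (adjusted p = 0.00122), and the opioid precursor Penk by 0.54 ± 0.07 (adjusted p = 0.00664). Among pallial counterpart genes, which mark the dorsal side of the telencephalon, 4 of 15 fell, 3 rose and 8 did not pass, with a median of -0.07. Bhlhe22 (-0.57 ± 0.07, adjusted p = 0.00707) and Neurod2 (-0.48 ± 0.07, adjusted p = 0.0113) fell, whereas Tbr1 (0.53 ± 0.07, adjusted p = 0.00820), Fezf2 (0.53 ± 0.08, adjusted p = 0.0153) and Eomes (0.58 ± 0.10, adjusted p = 0.0234) rose. Of 11 measured paralogs in the gene families of the set, 0 passed in either direction.

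**Figure D5:**
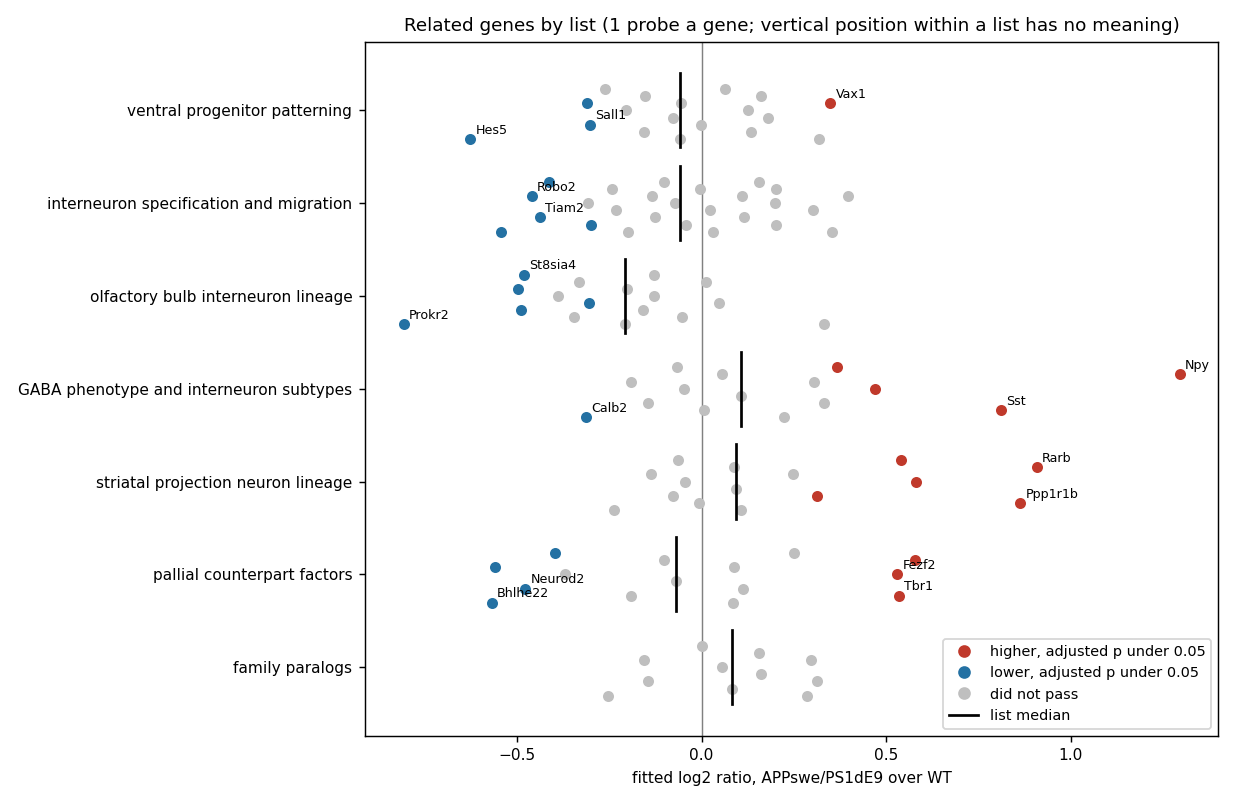
Genotype ratio (log2, APPswe/PS1dE9 over WT) of every measured gene of the 7 lineage lists, 1 point per gene, with a bar at the median of each list and colour for genes past an adjusted p of 0.05, up to 2 of smallest p in each direction being named. Olfactory bulb lineage genes have the lowest median, -0.21, and Npy the highest ratio, 1.29.

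Markers of other cell types also differed between the genotypes, and their part in the results above was not tested. Microglia markers rose in 10 of 11 measured genes (median 2.07), for example Aif1 (2.22 ± 0.07, adjusted p = 0.000133), and choroid plexus and ependyma markers in 7 of 8 (median 1.11). Astrocyte markers rose in 4 of 10 (median 0.28), Gfap by 0.69 ± 0.06 (adjusted p = 0.00252), with 0.42 and 1.16 on further probes. Neuron markers fell in 4 of 13 and rose in 2 (median -0.13), and Tubb3 did not pass (-0.13 ± 0.08, adjusted p = 0.368). The largest falls, named after their values were seen, were in Nefm (-0.80 ± 0.07, adjusted p = 0.00177) and Nefl (-0.72 ± 0.06, adjusted p = 0.00160).

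The summed level of the neuron markers was 16.79 to 16.99 in APPswe/PS1dE9 cultures and 16.91 to 17.12 in WT cultures. That of the astrocyte markers was 17.14 to 17.29 in APPswe/PS1dE9 cultures and 16.69 to 16.98 in WT cultures, and that of 10 microglia markers 13.58 to 14.00 in APPswe/PS1dE9 cultures and 13.10 to 13.40 in WT cultures. Itgam, the microglia marker that did not pass and named after its values were seen, had mean levels of 13.08 in APPswe/PS1dE9 cultures and 12.97 in WT cultures and makes up most of that sum. That of the choroid plexus and ependyma markers was 13.36 to 13.88 in APPswe/PS1dE9 cultures and 12.49 to 12.69 in WT cultures. Progenitor and cell cycle markers rose in 2 of 12 genes, and neither Nes (0.55 ± 0.13, adjusted p = 0.0524) nor Mki67 (0.05 ± 0.11, adjusted p = 0.815) passed. Their summed level was 16.92 to 17.06 in APPswe/PS1dE9 cultures and 16.53 to 16.90 in WT cultures. Vim, 1 of the 2 that rose, and Fabp7, which did not pass, make up most of that sum. Both were named after their values were seen. Mean levels in APPswe/PS1dE9 and WT cultures were 15.54 and 14.57 for Vim, and 15.67 and 15.85 for Fabp7. Of the 10 oligodendrocyte lineage markers 0 passed, Olig2 included (-0.21 ± 0.07, adjusted p = 0.134), and their summed level was 16.19 to 16.39 in APPswe/PS1dE9 cultures and 15.95 to 16.39 in WT cultures.

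Arrays 1 and 3 paired cultures that differed in sex-linked transcripts. On array 1, Xist was well above background in the WT culture alone and Y-linked probes in the APPswe/PS1dE9 culture alone, and on array 3 the reverse held. On arrays 2 and 4 the 2 cultures of an array had the same pattern, with Xist well above background in both. Of 5 Y-linked probes, 1 was well above background in both cultures of array 2 and 0 in those of array 4. Over those 2 arrays, of opposite dye orientation, the ratios were -0.69 for Dlx1, -0.45 for Dlx2 and -0.51 for Dlx5. They were -0.88 for the brighter Sp8 probe, -0.46 for the brighter Gsx2 probe and 0.53 for the dimmer Lhx6 probe. Each of these probes had the same sign on all 4 arrays, so its direction over these 2 was fixed in advance. The dye term, which the choice of genes did not use, passed the threshold for 0 of the 12 probes (0% of all kept probes). Its unadjusted limma p was under 0.05 for 1 of the 12, against 3939 of the 26916 probes tested.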

How the data were processed

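Per the labels, each array carried RNA of 1 APPswe/PS1dE9 and 1 WT culture, with label made by linear amplification of 100 ng RNA. The authors deposited scanner files of Feature Extraction 11.0.1.1 with median intensity of each spot and its background in both channels, not normalized, and annotated on mm9 per the file headers. They also hold processed intensity, from which the software had subtracted background and removed dye bias per the file headers, with the log10 ratio (Cy5 to Cy3) of it. The log2 values that the authors deposited in a table of 29350 spots come with no statement of scale or direction. Against the scanner files they were log2 ratios of processed signals, APPswe/PS1dE9 on top, uncentred: their slopes on log2 Cy5/Cy3 were -1.00, -1.00, 1.00 and 1.00, and the column medians -0.0797, -0.155, -0.0373 and -0.0378. Between 47.5% and 59.6% of spots were well above background, and 0 were saturated. The number of arrays limits the precision.

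In limma 3.58.1 (R 4.3.3), normexp background correction used an offset of 50, within-array loess gave weight 0 to control and outlier spots, and spots of a probe were averaged. Of 55681 probes, 26917 were well above background in 1 genotype on at least 3 arrays, and 26916 were tested. Levels were taken per channel after loess and Aquantile. The model in lmFit and eBayes had genotype and dye terms (residual df 2, prior df 4.14), so a difference between dye orientations is not part of the SE. Two-sided p-values were adjusted by Benjamini-Hochberg, with a threshold of 0.05. The fit was also run on simulated ratios with independent normal noise and no dye effect. That run cannot show how the fit behaves with the dye and culture differences of these arrays. Genes were named by accession through a RefSeq table of GRCm38.p6, used for names, order and promoters alone, and 27509 probes matched. In lists a gene stood with its kept probe of highest mean intensity.

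The 9 genes and the lists were chosen with earlier results of these data known. Named were all 9 genes, up to 3 genes of smallest p in each direction of each lineage list, passing neighbours, the 5 genes nearest to Dlx1, and Tubb3, Gfap, Aif1, Nes, Mki67 and Olig2. Other names were chosen after their values were seen, and some genes are not reported here. The alternatives were processed signals, an offset of 16, median centring, Aquantile, other filters, no dye term, 1 probe or the mean of probes per gene, the arrays with cultures of like sex, the deposited table, and leaving out each replicate.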

Additional observations from a re-analysis of the deposited data

How the results depend on the processing

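The fit is paired by construction, on ratios of 1 APPswe/PS1dE9 over 1 WT culture within each of 4 arrays. No paired analysis was possible beyond it, because there is no second pairing of the arrays. Counts are given below as lower and higher in APPswe/PS1dE9, and the causes of changes were not tested. Over the 12 to 14 alternatives in which a probe had a value, the ratios of the 9 genes kept their direction, apart from the brighter Lhx6 probe, which ranged from -0.01 to 0.26. Of the lineage list genes called, 0 of 31 reversed. The alternatives reuse the 4 arrays on which the 9 genes were chosen and the 31 called, so a kept direction is not further support.

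Leaving out 1 replicate in turn, 5 to 727 of all probes were lower and 363 to 2837 higher, 0 to 7 of the member probes lower and 0 to 1 higher, and 0 to 18 of the lineage genes lower and 4 to 21 higher. Likewise 0 to 2 neighbours were lower and 1 to 3 higher, the median of the members was -0.35 to -0.30, and 0 of their dye terms passed. The low counts came without replicate 3 (21 of all probes lower and 481 higher, 2 and 0 of the members) and without replicate 4 (5 and 363, 0 and 0). With processed signals, 223 of all probes were lower and 756 higher, 2 of the members were lower with a median of -0.48, 2 and 6 of the lineage genes passed, and 0 and 1 of the neighbours. The deposited table gave 216 and 746 of all probes, 2 lower members with a median of -0.48, 2 and 6 of the lineage genes, and 0 and 1 of the neighbours.

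Median centring without loess gave 1689 lower probes, 33 lower lineage genes, 5 lower neighbours and 12 member probes with a dye term past the threshold. No filter on dim probes gave 98 and 1050 of all probes, 7 and 8 of the lineage genes, and 0 and 1 of the neighbours. The filter on both channels of 4 arrays gave 2 and 1 of the neighbours. Without a dye term 298 probes were lower, and 0 neighbours. With 1 probe for each named gene, 0 members were higher, their median was -0.40, and 3 neighbours were lower. Over the 2 arrays with cultures of like sex, 7 and 451 of all probes passed, 0 and 0 of the members, 2 and 4 of the lineage genes, and 0 and 1 of the neighbours. Probes near background, such as both of Gsx2, were limited by signal over background.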

Other observations

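Array 3 differed from array 1 in several genes of GABA neurons, chosen after their values were seen. Gad1 had ratios of -0.06 on array 1 and 0.85 on array 3, Gad2 of -0.20 and 0.79, the vesicular GABA transporter Slc32a1 of -0.25 and 0.54, and the brighter Lhx6 probe of -0.15 and 0.64. The factor Meis2, known in striatal and bulb precursors, had -0.59 and 0.08, Tiam2 -0.57 and -0.03, and Sp9 -0.39 and -0.02. Arrays 2 and 4 also differ in dye orientation. On each of these arrays the 2 cultures had the same pattern of sex-linked transcripts, though the arrays differed in 1 Y-linked probe. There Gad1 had 0.20 on array 2 and 0.33 on array 4, Gad2 0.08 and 0.55, Slc32a1 0.04 and 0.09, the brighter Lhx6 probe -0.07 and 0.10, Meis2 -0.57 and -0.46, Tiam2 -0.83 and -0.32, and Sp9 -0.22 and -0.39. The part of sex in these differences was not tested.

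Within the 36 groups of 4 cultures or arrays examined, 0 had a value far from the rest by Dixon's test.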
